A study of Mus musculus with 11 samples.

Results

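The comparison described here is the wounding response of skin fibroblasts from activin-overexpressing mice: 2 libraries from 5-day wounds (Act 5dw, numbered 1 and 3) against 3 libraries from normal back skin (Act NS, numbered 1, 2 and 3). These are 5 of the 11 libraries of the series. The other 6 are wild-type (WT) libraries, 3 from NS and 3 from 5dw, and they serve to show where the Act response differs. They were also part of the same fit, so the standard errors and p-values of the Act comparison rest on the spread of all 4 groups. Genes entered when they had at least 1 RPKM (reads per kilobase of gene, scaled to the mapped reads of the library) in at least 2 of the 5 Act libraries, which left 11430 of the 47643 gene symbols in the file. A gene that is low in NS can have entered only through the wound libraries, and the reverse holds for a gene that is low in wounds.

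Act mice carry human INHBA, the gene of the activin A subunit, under the keratin 14 promoter, which drives expression in keratinocytes. Act and WT animals were F1 littermates of CD-1 and C57Bl/6 parents, and were 9 to 12 weeks old, and female in the methods. Full-thickness excisional wounds were taken at day 5 with a punch, and live cells with CD140a (encoded by Pdgfra) and without CD45, CD3, CD11b and F4/80 were sorted from wounds and from unwounded back skin. CD3 is named in the sample labels and not in the gate given in the methods. RNA from 3 animals was pooled for each library, so a library is a pool and the p-values below measure the spread between pools. The RNA input differed between the tissues, with 100 ng for NS and 200 ng for 5dw, and this cannot be told apart from wounding. The Act 5dw library numbered 2 had been removed by the authors at quality control.

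Dermal fibroblasts build the collagen-rich matrix of resting skin. After a full-thickness injury they enter the wound bed, divide, lay down fibronectin, tenascin and new collagen, take on contractile proteins as myofibroblasts, and release proteases, chemokines and growth factors. Activin A is a secreted ligand of the TGF-beta family that wounds produce and that acts on fibroblasts through activin receptors and SMAD2 and SMAD3.

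The 5 Act libraries rested on 20531149 to 25626155 mapped reads, so 1 RPKM stood for 20.5 to 25.6 reads per kilobase of gene. Replicates of the Act groups correlated at r = 0.958 to 0.983 across genes. On the 5 Act libraries, the first principal component held 79.8% of the variance and placed the NS libraries at -43.7 to -33.0 and the wound libraries at 54.4 and 59.9. The second component held 10.7% and set Act NS library 1, at 31.4, apart from the other 4, which lay between -19.8 and 1.29. Pdgfra, the gene of the sorting marker, was at 58.4, 53.3 and 43.4 in Act NS and at 39.9 and 35.4 in Act 5dw. It was called lower in Act wounds (log2 change -0.44, SE 0.14, adjusted p = 0.0275 with limma) and was not called in WT (-0.18, SE 0.13, adjusted p = 0.262). The levels of Pdgfra and all levels below are scaled RPKM, meaning the deposited RPKM times 1 median-ratio factor for each library. As deposited, without the factor, the median log2 fold change over all genes was -0.31, and changes are reported here relative to that shift.

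Other cell types were read from marker lists. All 8 general immune markers stayed under the filter, and their summed level was 0.95 to 1.62 in the 5 libraries, with Ptprc (the CD45 gene) at 0.04 or less. Keratinocyte markers were present in every library, and their sum over 14 genes was 1270, 2565 and 3935 in Act NS libraries 1, 2 and 3 and 446 and 545 in the wound libraries. All 14 had their lowest NS value in library 1 and their highest in library 3, and 8 of them were lower in 5dw (adjusted p under 0.05), none higher. Krt14, whose promoter drives the transgene, was at 200.3, 303 and 429 in NS and at 155 and 183 in wounds and was not called (log2 change -0.81, SE 0.71, adjusted p = 0.387). Cd3e, a T cell receptor subunit gene, was at 3.03, 29.8 and 8.13 in NS and at 67.4 and 66.3 in wounds, and Cd4 was also higher, while Cd3d, Cd3g, Cd8a, Trac, Lck and Cd2 were at or below 0.95 in each of the 5 libraries. Of the other lists, 1 of 3 macrophage markers tested (none higher and 1 lower as deposited), the single neutrophil marker tested, 2 of 4 endothelial and 2 of 6 pericyte markers were higher in wounds, the pericyte marker Cspg4 was lower, and all 4 Schwann cell markers tested were lower. Among 3 tested adipocyte markers 1 was lower, and the 1 skeletal muscle marker tested was not called. The part of these cells in the results below was not tested, and in sorted bulk RNA fewer cells of a type and less RNA per cell cannot be told apart.

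Wounding changed a large share of the transcriptome of Act fibroblasts. With limma on log2 values and Benjamini-Hochberg adjustment, 4692 of 11430 genes were differentially expressed (DEGs, adjusted p under 0.05), which is 41.0% of the genes tested. Of these, 2291 were higher in wounds (20.0%) and 2401 were lower (21%). Among the DEGs, 789 rose and 1079 fell by more than 2-fold, and 173 rose and 333 fell by more than 4-fold. The median log2 fold change was 0.37 in size, against a median standard error (SE) of 0.17. Both wound libraries lay above all 3 NS libraries in 30.7% of the genes and below all 3 in 31.2%. The split between higher and lower rests on the scaling, since the deposited values gave 1028 higher and 4256 lower DEGs. A fit of the 2 Act groups alone, without the WT libraries, gave 3879 DEGs, 1900 higher and 1979 lower. Without Act 5dw library 3, with the lone wound library assumed to vary like the other groups, 3134 DEGs were left, 1547 higher and 1587 lower.

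The 12 protein-coding DEGs with the largest increase, at a mean of 5 or more, covered acute-phase and inflammatory proteins (Saa3, Nos2, Hp, Cxcl5), matrix proteins (Cthrc1, Tnc, Col12a1, Spp1, Prg4), proteases (Mmp9, Prss35) and the EGF receptor ligand Ereg. Saa3, which encodes an acute-phase apolipoprotein on chromosome 7 (chr7:46711998-46715700, GRCm38), was at 2.36, 5.84 and 4.85 in NS and at 1122 and 2466 in wounds. It had the largest increase of these genes, with a log2 fold change of 8.50 (SE 0.55, adjusted p = 6.67e-06). Cthrc1, a secreted glycoprotein with a collagen triple helix repeat (chr15:39076932-39087121), went from 2.86, 6.12 and 4.20 to 474 and 414, a log2 change of 6.56 (SE 0.35, adjusted p = 2.64e-06). The haptoglobin gene Hp was at 0.93, 0.43 and 0.85 in NS and at 35.9 and 107 in wounds, and inducible nitric oxide synthase (Nos2) was at 0.15 or less in NS and at 15.2 and 67.8 in wounds. In both genes wound library 3 was above wound library 1, and both wound libraries were above every NS library. Hp and Nos2 entered only through the wound libraries, as did Mmp9 and Prss35, so none of them could have been called lower. Ereg, the epiregulin gene, was at 0.54, 2.41 and 4.00 in NS and at 81.8 and 156 in wounds (log2 change 5.57, SE 0.55, adjusted p = 5.01e-05).

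Among the 12 largest decreases, Krt77, Krt10 and Krt1 encode epidermal keratins. Krt10 was at 370, 919 and 1467 in NS and at 12.8 and 11.4 in wounds (log2 change -5.98, SE 0.63, adjusted p = 7.30e-05). In 7 of the 12 genes (Krt77, Krt10, Krt1, Gm94, Dapl1, Cldn1 and Clca3a2) the NS libraries stood in the order of the keratinocyte markers, library 1 lowest and library 3 highest. That order held for 67.7% of the 31 DEGs that fell by more than 16-fold, for 30.7% of all 2401 lower DEGs and for 24.6% of all genes tested. It is not particular to genes that fell, since Ereg, Cxcl5, Plod2 and Pgk1, which rose, held it too, as did Bmp2 and Gli1, which fell. The other 5 genes did not follow it: Myoc (myocilin), the cytochrome P450 gene Cyp2f2, the aldehyde dehydrogenase gene Aldh3a1, the methyltransferase gene Inmt and the sphingomyelinase gene Smpd3. Myoc (chr1:162639155-162649693) was at 149, 194 and 154 in NS and at 2.73 and 1.48 in wounds, a log2 change of -6.03 (SE 0.27, adjusted p = 1.85e-06). Inmt was at 73.6, 79.8 and 25.5 in NS and at 1.32 and 0.58 in wounds.

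**Figure D1:**
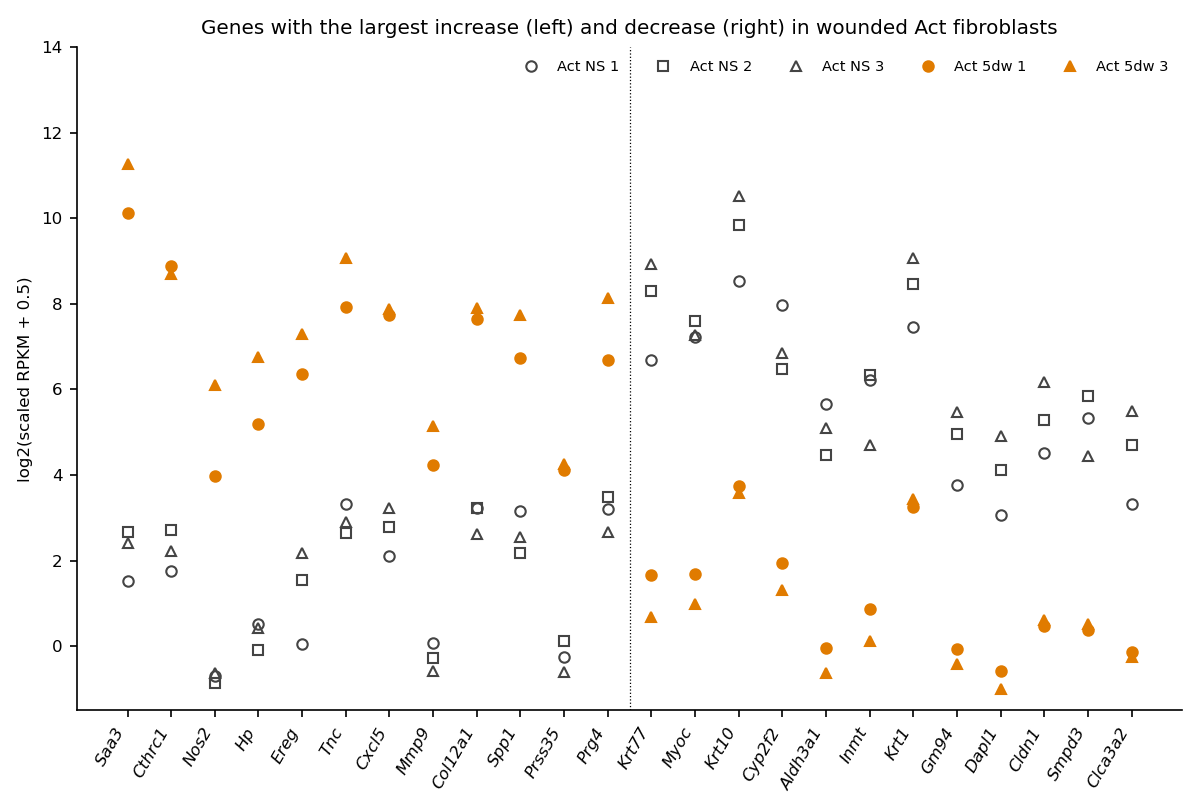
The 12 genes with the largest increase and the 12 with the largest decrease are plotted as log2(scaled RPKM + 0.5) on the vertical axis, with 1 symbol for each Act library (open, NS; filled, 5dw). The genes were chosen among those whose NS and 5dw libraries do not overlap, and in Krt10 the NS libraries spread from 370 to 1467 scaled RPKM.

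Fibrillar collagens, the main load-bearing fibres of dermis and scar, rose in wounds: of 11 chains 10 were tested, 8 were higher, none was lower and the median log2 change was 1.92, against 0.003 over all genes. Col1a1 was at 3924, 1950 and 3229 in Act NS and at 9108 and 12280 in Act 5dw (log2 change 1.86, SE 0.36, adjusted p = 0.00251). Col3a1, the chain of the fine fibres of early granulation tissue, was at 2702, 1860 and 2165 in NS and at 10154 and 10066 in wounds (2.19, SE 0.24, adjusted p = 9.14e-05). The largest log2 change among the fibrillar chains was that of Col24a1, at 0.37, 0.34 and 0.45 in NS against 7.64 and 9.21 in wounds (3.32, SE 0.17, adjusted p = 2.26e-06). Col24a1 entered only through the wound libraries, so it could not have been called lower. Col11a1 and Col11a2 were not called, at log2 changes of 0.92 (SE 0.44) and -0.08 (SE 0.19).

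The remaining collagens moved in both directions, with 9 higher and 10 lower of 22 tested (5 and 10 in the deposited values). Those that fell were mostly basement membrane and hemidesmosome chains: Col4a1 was at 254, 199 and 205 in NS and at 41.8 and 58.8 in wounds, with Col4a2, Col4a3, Col4a4, Col15a1, Col17a1 and Col18a1 also lower. The other 3 that fell were Col20a1, Col23a1 and Col28a1. Col4a5 was the exception among type IV chains, at 3.28, 3.38 and 4.03 against 7.36 and 5.401 (log2 change 0.75, SE 0.20, adjusted p = 0.0142). The fibril-associated collagen Col12a1 rose from 8.92, 8.95 and 5.69 to 201 and 240, and Col8a1, Col7a1, Col14a1, Col16a1 and all of Col6a1, Col6a2 and Col6a3 were also higher. Col17a1 is itself a keratinocyte collagen, at 18.1, 27.2 and 42.8 in NS in the order of the keratinocyte markers. Col4a5, which rose, held that order too.

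Enzymes and chaperones that modify and cross-link collagen rose broadly, with 22 of 29 tested higher and 4 lower, and a median log2 change of 1.28. Plod2, the lysyl hydroxylase that acts on collagen telopeptides, was at 6.35, 10.3 and 14.8 in NS and at 97.2 and 121 in wounds (3.38, SE 0.37, adjusted p = 8.96e-05). P4ha3, a prolyl 4-hydroxylase subunit, went from 4.38, 7.17 and 6.79 to 53.6 and 53.4, and the lysyl oxidase gene Lox from 101, 106 and 84.5 to 543 and 624 (2.59, SE 0.15, adjusted p = 5.09e-06). Both wound libraries were above all NS libraries in these 3 genes. The 4 lower members were Pcolce2, an enhancer of procollagen C-proteinase, which fell from 87.0, 81.6 and 64.9 to 5.32 and 3.85, and Loxl4, Tll1 and Colgalt2. Loxl4, a relative of Lox, was at 20.0, 19.5 and 20.2 in NS and at 4.25 and 5.73 in wounds, opposite in direction to Lox, Loxl2 and Loxl3.

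Matricellular and provisional matrix genes were higher in 16 of 31 cases and lower in 2, against 20.0% and 21% over all genes. Tnc (tenascin-C, a glycoprotein of provisional matrix) was at 9.44, 5.75 and 6.98 in NS and at 245 and 536 in wounds (5.55, SE 0.40, adjusted p = 9.21e-06). Postn, the periostin gene, went from 241, 221 and 137 to 1041 and 995 (2.39, SE 0.24, adjusted p = 5.17e-05). Fn1 (fibronectin) showed a small rise, from 324, 451 and 400 to 619 and 631 (0.69, SE 0.18, adjusted p = 0.0117). Tnxb and Sparcl1 were the lower members, and Sparcl1 fell from 127, 97.5 and 99.5 to 14.99 and 15.97. Has1 and Has2, which make hyaluronan, Eln (elastin) and Ctgf (connective tissue growth factor) were not called, with log2 changes between -0.27 and 0.39.

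Small leucine-rich proteoglycans, which coat collagen fibrils, were split, with 4 higher and 2 lower of 11 tested (3 and 4 as deposited). The 2 lower are a share near the 21% over all genes. Bgn (biglycan) was at 581, 440 and 404 in NS and at 1988 and 1926 in wounds, and Aspn (asporin) was at 115, 83.3 and 71.7 against 405 and 296 (1.96, SE 0.22, adjusted p = 1.07e-04). Dcn (decorin) moved the other way, from 4406, 3347 and 3461 to 2393 and 2031 (-0.75, SE 0.20, adjusted p = 0.0115). The median log2 change of these 11 genes was -0.06, with no shared direction.

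**Figure D2:**
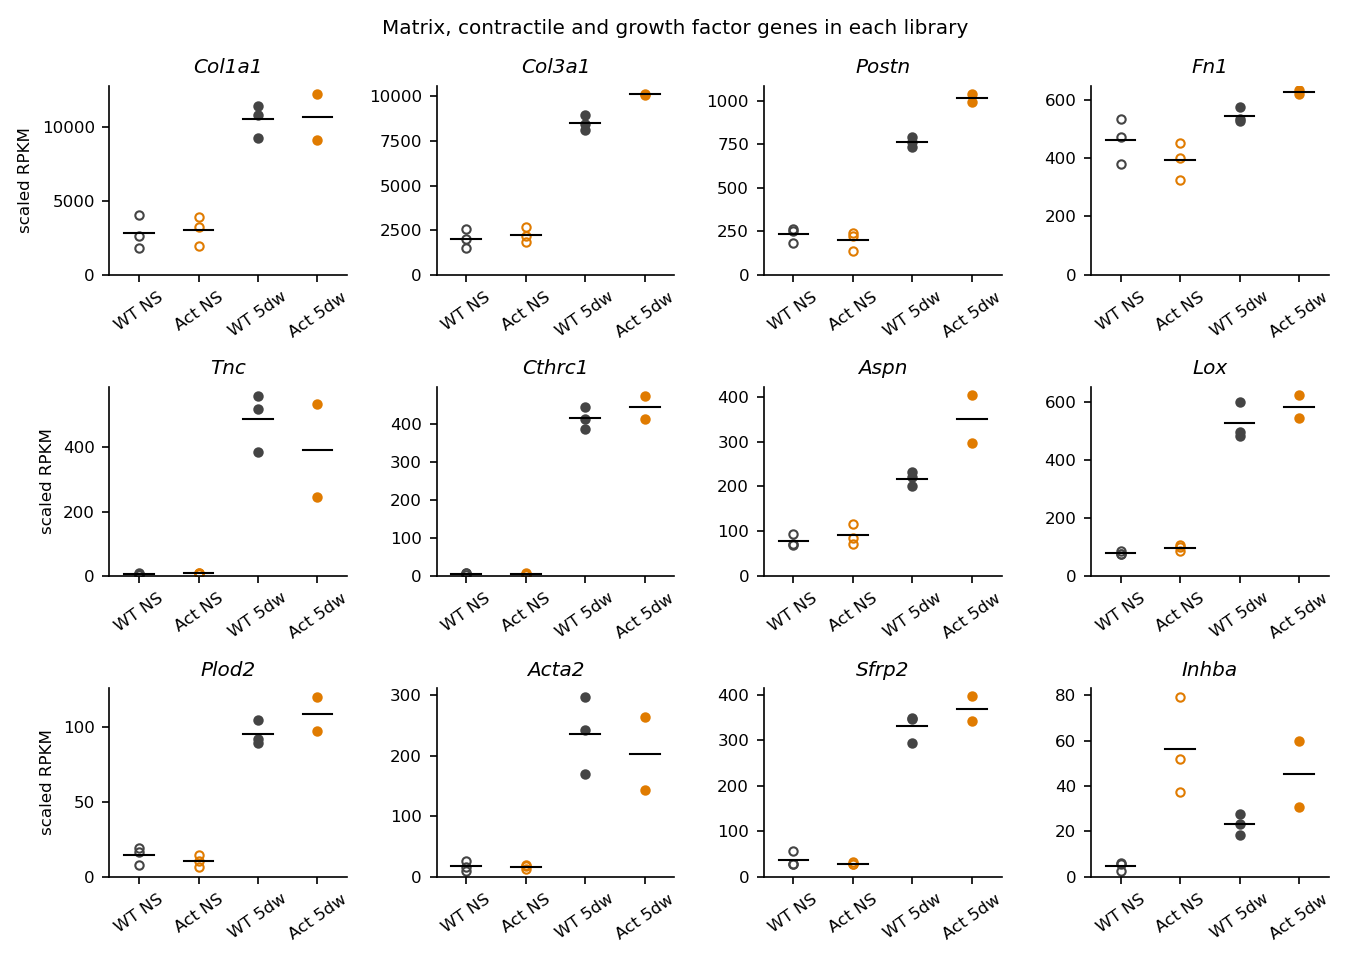
Scaled RPKM (vertical axes, starting at 0) of 12 genes are shown in every library of WT NS, Act NS, WT 5dw and Act 5dw, with a bar at each group mean. In all panels but Inhba both wound group means lie above both NS group means, by least in Fn1, and Inhba differs, with Act NS at 37.5 to 79.3 above WT 5dw at 18.2 to 27.8.

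Of 11 metalloproteinases tested, 8 were higher and 2 lower, the latter a share near the 21% over all genes. Mmp9 rose from 0.55, 0.33 and 0.17 to 18.4 and 34.7, Mmp13 from 1.65, 1.83 and 1.70 to 28.1 and 23.2, and Mmp28 and Mmp27 fell. Of the 4 inhibitors tested, Timp1 rose from 40.3, 63.2 and 50.7 to 638 and 1366 (4.19, SE 0.38, adjusted p = 3.10e-05). Timp2, Timp3 and the membrane inhibitor Reck fell, with Reck at 36.8, 30.8 and 34.6 in NS and 9.78 and 8.12 in wounds. In the plasminogen system 5 of 7 were higher and none lower (3 as deposited). The tissue plasminogen activator gene Plat was at 123.2, 239 and 190 against 675 and 673.

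Contractile genes, the signature of myofibroblasts, were higher in 13 of 21 tested and lower in none (10 higher and 1 lower as deposited). Acta2, which encodes alpha-smooth muscle actin, was at 17.9, 19.4 and 13.3 in Act NS and at 144 and 263 in Act 5dw (3.51, SE 0.40, adjusted p = 1.09e-04). Tagln (transgelin) went from 9.93, 13.7 and 8.27 to 43.8 and 82.0, a log2 change of 2.47 (SE 0.37). Its reads are less certain, since 62.2% of its 31-base sequences also occur in other annotated genes. Other smooth muscle genes of the list differed in level. Actg2, the smooth muscle gamma-actin gene, rose from 2.55, 2.86 and 1.73 to 4.30 and 9.56 (1.29, SE 0.42, adjusted p = 0.0299), and Smtn and Myl9 were at 13.9 to 20.1 and 41.6 to 65.5 and were not called. Cnn1 was at 1.01 and 2.23 in wounds and did not pass the filter, Myh11 and Lmod1 were at or below 0.51 in all 5 libraries, and Des was at 0.66 to 1.45. Of 10 integrin subunits that bind fibronectin or collagen 3 were higher, among them Itga5 and Itgb1, and 2 were lower, Itga8 and Itga3, shares near the 20.0% and 21% over all genes. Itga3 was at 1.74, 2.74 and 4.11 in NS, in the order of the keratinocyte markers, which Itga5, a gene that rose, held too.

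**Figure D3:**
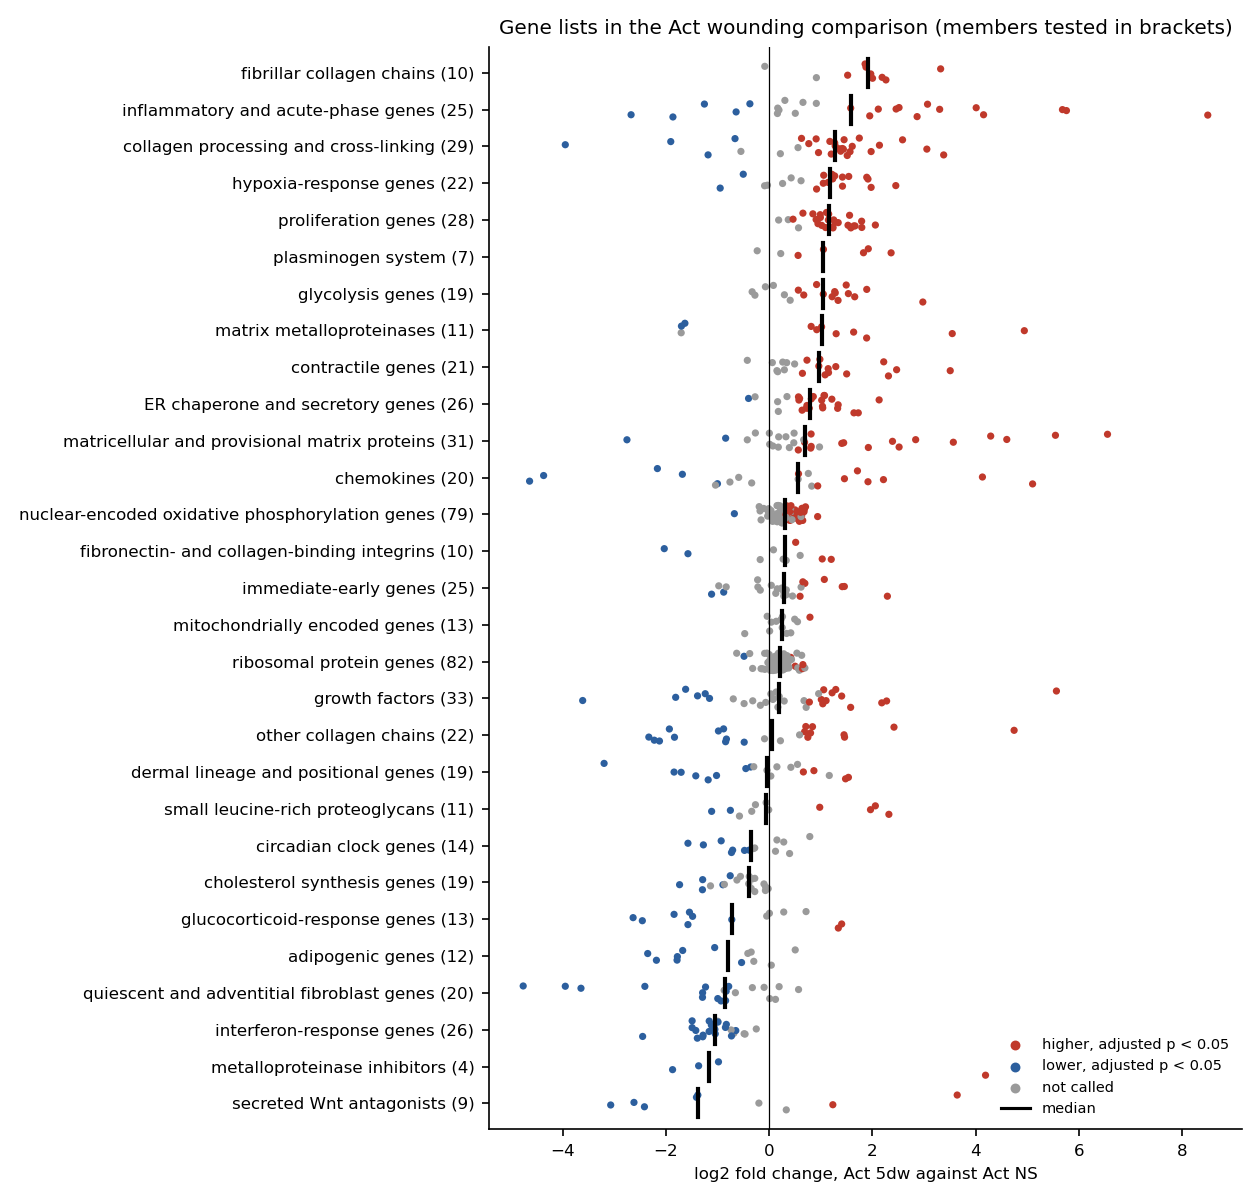
Each row is a gene list with the number of members tested in brackets, and each point is the log2 fold change of 1 member between Act 5dw and Act NS (red, higher; blue, lower; grey, not called; black bar, median). Medians run from 1.92 for fibrillar collagens to -1.38 for secreted Wnt antagonists.

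Inflammatory and acute-phase genes had the second highest median of the 29 lists (1.58), with 13 of 25 higher and 5 lower. The share that was lower lay near the 21% over all genes. Il1rl1, the receptor of interleukin-33, was at 3.15, 11.6 and 12.8 in NS and at 139 and 130 in wounds, and Il33 itself rose from 20.2, 33.2 and 36.9 to 156 and 170. Csf1 (macrophage colony-stimulating factor) fell from 120, 163 and 202 to 45.9 and 40.4, while Csf2 and Csf3 rose. The NS libraries of Csf1 stood in the order of the keratinocyte markers, which 24.6% of all genes held. Il1rl1 and Il33, which rose, held that order too. Il6 was high in both tissues, at 235, 459 and 309 in NS and at 397 and 326 in wounds, and was not called (0.16, SE 0.41, adjusted p = 0.785). C3, Ptges, Icam1 and Il1rn were lower, the last an interleukin-1 antagonist that keratinocytes also express and that stood at 4.34, 8.28 and 15.3 in NS, in the order of the keratinocyte markers.

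Chemokines were higher in 8 of 20 tested and lower in 5 (6 and 6 as deposited), the latter a share near the 21% over all genes. The neutrophil-attracting Cxcl5 was at 3.82, 6.35 and 8.91 in NS and at 213 and 236 in wounds (5.11, SE 0.31, adjusted p = 5.78e-06). Cxcl3, Cxcl2 and Cxcl1 rose too, with log2 changes of 4.13 (SE 0.45), 2.22 (SE 0.34) and 1.46 (SE 0.37). Cxcl13 and Ccl19, which attract lymphocytes, fell. Cxcl13 was at 148, 149 and 25.96 in NS and at 4.03 and 1.99 in wounds, and Ccl19 was at 38.4, 30.95 and 48.1 against 1.19 and 1.61. For Ccl19, 58.8% of the 31-base sequences occur in other annotated genes as well. The monocyte attractants Ccl2 and Ccl7 were abundant in NS (407 to 1126 and 420 to 1025) and were not called. Both wound libraries were above the NS libraries for Ccl2 (1201 and 1433), whereas for Ccl7 (1021 and 1231) the groups overlapped.

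The start regions of these chemokine genes are shown because 3 of the 8 that rose share a letter pattern, which was seen after their values. The promoter table from RefSeq (GRCm38.p6) held 15 of the 20 tested chemokine genes, and the 250 bases before each start were searched on both strands for GGGANNTTCC, a form of the NF-kappaB site. It was found in 4 of the 15 genes (26.7%) and in 1.36% of all 27025 genes of the table. In Cxcl1, Cxcl2 and Cxcl3 matches on the plus and minus strands overlap, offset by 1 base, and the capitals below mark both. The fourth gene with a match was Cxcl10, which was not called (0.56, SE 0.40). In the inflammatory and acute-phase list 2 of the 20 genes found there held a match: Csf1, which fell, and Il6, which was not called. The stretches lie at chr5:90891149-90891209, chr5:90903777-90903837 and chr5:90786003-90786063, all on the plus strand, and a match is a description of the letters only.
Cxcl1: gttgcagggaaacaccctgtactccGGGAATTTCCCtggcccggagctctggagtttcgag
Cxcl2: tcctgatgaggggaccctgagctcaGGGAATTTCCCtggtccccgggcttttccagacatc
Cxcl3: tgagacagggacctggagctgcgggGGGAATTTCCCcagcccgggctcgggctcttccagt

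Growth factor genes were higher in 12 of 33 tested and lower in 6, the latter a share near the 21% over all genes. Next to Ereg, Pgf (placental growth factor) was at 1.64, 1.45 and 2.01 in NS and at 4.48 and 22.1 in wounds, a log2 change of 2.28 with an SE of 0.50 that reflects the gap between the wound libraries. Nrg1, Hgf, Pdgfc, Vegfa and Igf1 were also higher. Bmp4 fell from 14.8, 9.60 and 10.5 to 0.49 and 0.46 (-3.61, SE 0.26, adjusted p = 9.08e-06) and Bmp2 from 9.87, 12.0 and 13.8 to 2.53 and 3.54. The 3 TGF-beta genes Tgfb1, Tgfb2 and Tgfb3 were not called, with log2 changes of 0.96 (SE 0.39), 0.17 (SE 0.22) and 0.07 (SE 0.29). Secreted Wnt antagonists had the lowest median of the 29 role lists (-1.38), with 5 of 9 lower and 2 higher (5 and 1 as deposited). The 2 higher are a share near the 20.0% over all genes. Sfrp2 went up from 28.3, 32.0 and 26.9 to 396 and 342 (3.65, SE 0.26, adjusted p = 9.84e-06), while Notum, Apcdd1, Dkk2, Wif1 and Frzb went down, Dkk2 from 27.3, 11.6 and 18.4 to 3.58 and 2.46.

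Glycolysis genes were higher in 13 of 19 tested and lower in none (9 higher and 2 lower as deposited). The lactate exporter gene Slc16a3 was at 1.06, 0.85 and 0.98 in NS and at 5.96 and 20.1 in wounds, and Pkm was at 89.1, 83.1 and 95.4 against 186 and 340. Pgk1 rose from 23.2, 29.3 and 34.2 to 85.4 and 135, and other annotated genes hold 54.7% of its 31-base sequences. Hypoxia-response genes were higher in 15 of 22 and lower in 2 (Adm and Kdm3a), and Ddit4 rose from 10.1, 12.5 and 9.13 to 49.7 and 72.0. Both lists were also uneven within wounds: 17 of 19 glycolysis genes and 19 of 22 hypoxia-response genes were higher in wound library 3 than in library 1, by a median log2 of 0.64 and 0.48, against -0.002 over all genes. The same held for 27 of 28 proliferation, 19 of 21 contractile, 22 of 25 immediate-early and 25 of 29 collagen processing genes, with medians of 0.24, 0.44, 0.26 and 0.33. The hypoxia-response core ACGTG or GCGTG was in the 250 bases before the start of 16 of 18 hypoxia-response genes found in the table (88.9%), and in 62.1% of tested genes and 41.5% of all genes found there.

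ER chaperone and secretory genes were higher in 21 of 26 and lower in 1 (12 and 2 as deposited). Pdia5, a protein disulfide isomerase, was at 11.3, 8.50 and 9.54 in NS and at 39.7 and 49.2 in wounds (2.13, SE 0.14, adjusted p = 7.42e-06), and the KDEL receptor gene Kdelr3 rose from 41.6, 29.6 and 43.2 to 114 and 139. The direction of respiratory chain and ribosomal genes turned with the scaling. Nuclear-encoded oxidative phosphorylation genes counted 26 higher and 1 lower of 79 (none higher and 5 lower as deposited), ribosomal protein genes 5 and 1 of 82 (none and 4 as deposited) and mitochondrially encoded genes 1 and 0 of 13 (0 and 1 as deposited).

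Proliferation genes were higher in 25 of 28 tested, lower in none, and both wound libraries stood above all NS libraries in 27 of the 28. Over all genes these shares were 20.0%, 21% and 30.7%. Members as low in NS as Cdk1 entered through the wound libraries and could not have been called lower. Levels were low throughout: Cdk1 was at 0.54, 0.95 and 0.84 in NS and at 4.55 and 5.00 in wounds (2.06, SE 0.22, adjusted p = 8.46e-05), and Mki67 at 1.10, 2.24 and 1.86 against 3.85 and 3.80 (0.99, SE 0.25). Pcna, Mcm4 and Kif11 were not called. Among the NS libraries, the mitotic genes Mki67, Top2a, Ccnb2 and Cdc20 were lowest in library 1.

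Genes of quiescent and adventitial fibroblasts fell in 12 of 20 cases and rose in none. Gsn (gelsolin), among the most abundant transcripts in Act NS at 4447, 5002 and 4019, was at 370 and 344 in wounds (-3.65, SE 0.17, adjusted p = 1.85e-06). Pi16 went from 309, 366 and 260 to 155 and 168, Clec3b from 1078, 1265 and 1055 to 577 and 370, and Smpd3 and Pcolce2 fell most. Cd248, Sema3c, Fbln1, Htra3 and Gpx3 were not called. Among dermal lineage and positional genes 4 of 19 were higher and 8 lower (2 and 10 as deposited), the former a share near the 20.0% over all genes: the transcription factors Runx1 and Runx2 rose, Runx1 from 5.85, 5.92 and 5.32 to 16.9 and 18.1, while Ntn1 and the hedgehog target Gli1 fell, Gli1 from 7.10, 11.7 and 12.9 to 2.93 and 2.11. The engrailed gene En1, a marker of the dorsal scarring lineage, was at 12.7, 15.03 and 12.8 in NS and at 17.6 and 12.8 in wounds and was not called (0.15, SE 0.18).

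Adipogenic genes fell in 7 of 12 and rose in none. The lipogenic transcription factor gene Cebpa was at 22.1, 21.3 and 31.02 in NS and at 5.21 and 4.80 in wounds, and Scd1 was at 29.5, 60.3 and 59.8 against 10.7 and 7.32. Circadian clock genes were lower in 7 of 14, with Per1 at 8.39, 12.1 and 9.41 in NS and 2.47 and 3.58 in wounds. Glucocorticoid-response genes were lower in 7 of 13 and higher in 2: Zbtb16 fell from 2.97, 8.91 and 4.00 to 0.22 and 0.49, Tsc22d3 (GILZ) from 20.0, 22.4 and 10.6 to 2.79 and 2.53, and Sgk1 and Angptl4 rose. Cholesterol synthesis genes were lower in 5 of 19, a share near the 21% over all genes, and higher in none. Immediate-early genes, which also respond to tissue digestion, were high in both tissues, with 7 of 25 higher and 2 lower (4 and 4 as deposited), against 20.0% and 21% over all genes. Fos was at 1019, 884 and 790 in NS and at 1333 and 1562 in wounds, and Ier3 showed the largest rise in that list (2.29, SE 0.19, adjusted p = 2.08e-05).

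The WT comparison of the same tissues contrasts none of the Act libraries, but it takes its spread from the same fit of 4 groups. It was used to ask where the Act response differs. It gave 5086 DEGs (44.5%), 2544 higher (22.3%) and 2542 lower (22.2%). DEGs of the same direction in both genotypes numbered 3941, which is 84.0% of the Act DEGs and 77.5% of the WT DEGs, and 10 genes were called in opposite directions. Of the 173 Act DEGs that rose by more than 4-fold, 169 were also higher in WT, and of the 333 that fell by more than 4-fold, 321 were also lower. Across the 11430 genes the log2 changes correlated at r = 0.931, a description over genes that are not independent, and the median ratio of Act to WT change in the shared DEGs was 1.05.

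**Figure D4:**
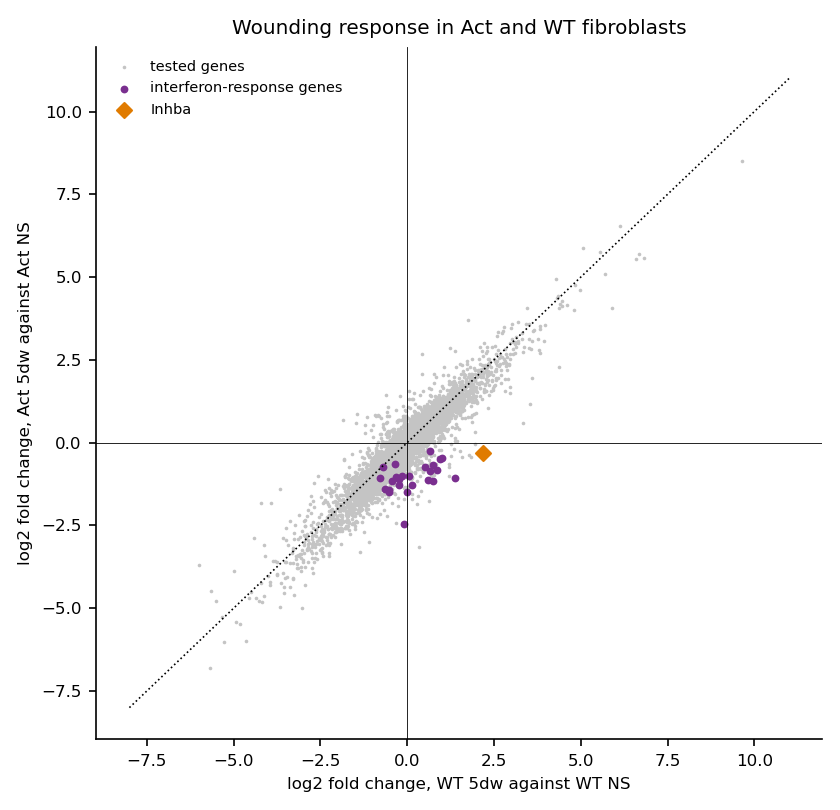
The log2 fold change of each of 11430 genes in Act (vertical axis) is plotted against that in WT (horizontal axis), with the dotted line marking equal change. Most genes lie near that line, the 26 interferon-response genes (purple) lie below it, and Inhba (diamond) lies at 2.20 in WT and -0.32 in Act.

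Tested as an interaction in the same fit, the difference between the Act and the WT response passed the threshold in no gene (0% of 11430). Without adjustment, 413 genes (3.61%) had p under 0.05, and limma-voom on reads worked out from the RPKM values likewise called 0, with 345 at an unadjusted p under 0.05. The smallest adjusted p was 0.0669, for Atp5j2, an ATP synthase subunit gene. Atp5j2 was at 6.52, 6.79 and 6.86 in Act NS and at 8.41 and 8.75 in Act 5dw, and at 6.39 to 9.29 in WT NS and 29.0 to 31.7 in WT 5dw, so the gap lies between the wound groups. Next in order of p were the processed pseudogenes Gm13841 and Gm10182, whose 31-base sequences all occur in other annotated genes, Serpina3b and the immunoproteasome gene Psmb8. Serpina3b fell in both genotypes, from 6.84 to 14.2 in WT NS and from 1.08, 2.08 and 1.32 in Act NS to 0.09 or less in all 5 wound libraries.

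Inhba, the mouse gene that corresponds to the transgene, was at 37.5, 52.0 and 79.3 in Act NS and at 30.75 and 60.02 in Act 5dw. The groups overlapped, and the log2 change was -0.32 (SE 0.40, adjusted p = 0.559). In WT it was at 5.79, 6.06 and 2.69 in NS and at 23.5, 18.2 and 27.8 in wounds (2.20, SE 0.36, adjusted p = 7.82e-04). The difference between the responses was -2.52 (SE 0.54, unadjusted p = 8.05e-04) and did not pass after adjustment (0.416). Act NS was above WT NS by a log2 of 3.41 (adjusted p = 0.0113) in all 3 libraries against all 3, and the Act NS libraries stood in the order of the keratinocyte markers, which 24.6% of all genes held. Whether reads of the human transgene were counted as mouse Inhba was not tested. Inhbb was not called, at 11.8, 2.73 and 5.41 in Act NS and 2.85 and 3.84 in wounds.

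Interferon-response genes were the list in which the Act and WT medians lay furthest apart. This list had drawn attention in earlier results of these data, so its direction is no independent evidence. In Act, 19 of 26 were lower in wounds and none higher, the median log2 change was -1.06, and both wound libraries were below all NS libraries in 25 of the 26. In WT, 6 were lower and 5 higher, with a median of -0.05, and these counts rested on single libraries. Without WT 5dw library 1 they were 1 lower and 10 higher (median 0.26), without WT 5dw library 2 they were 6 and 3 (-0.26), and without WT 5dw library 3 or WT NS library 1 they were 3 and 4. As deposited, 11 were lower and 2 higher in WT (median -0.46), and with the replicate number as a block 6 were lower and 8 higher. The difference in response was negative in 26 of 26 genes, with 22 at an unadjusted p under 0.05 and 0 after adjustment (smallest adjusted p 0.208, for Psmb8).

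The class I genes B2m, H2-D1 and H2-K1 had the highest levels of this list. B2m, the light chain of class I molecules, was at 1058, 1311 and 1245 in Act NS and at 455 and 459 in Act 5dw (-1.39, SE 0.23, adjusted p = 0.00113). H2-D1, a class I heavy chain gene, was at 555, 684 and 639 in Act NS and at 224 and 241 in wounds, and other annotated genes hold 26.9% of its 31-base sequences. Psmb8 went from 14.5, 15.6 and 16.5 to 6.96 and 7.07 (-1.09, SE 0.10, adjusted p = 3.79e-05), and in WT it was at 11.7 to 12.8 in NS and 9.45 to 10.9 in wounds. B2m and H2-D1 also fell in WT, by a log2 of -0.63 and -0.53 (adjusted p = 0.0328 and 0.0266), so Act and WT shared the direction there.

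Among the antiviral effectors and their regulators, Isg15, a ubiquitin-like modifier, was at 57.8, 75.8 and 63.8 in Act NS and at 36.4 and 36.7 in Act 5dw (-0.83, SE 0.29, adjusted p = 0.0395). In WT it was at 33.5, 60.4 and 40.5 in NS and at 55.2, 107 and 84.8 in wounds (0.86, SE 0.26, adjusted p = 0.0195), and it was the single list member called lower in Act and higher in WT. The WT groups overlapped in Isg15, with the highest NS library above the lowest wound library. Irf7, the transcription factor that amplifies type I interferon, was at 27.98, 29.9 and 20.2 in Act NS and at 12.4 and 10.1 in Act 5dw, against 15.4 to 16.1 and 16.7 to 44.5 in WT. Ifit3 had the largest fall in Act, from 83.8, 80.5 and 33.5 to 12.4 and 9.25 (-2.45, SE 0.47, adjusted p = 0.0023), and 61.8% of its 31-base sequences are shared with other annotated genes. Among the 26 genes, Act NS was above WT NS in 25 by a median log2 of 0.38, and Act 5dw was below WT 5dw in 25 by a median of -0.70, and none of these differences within a tissue passed after adjustment.

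**Figure D5:**
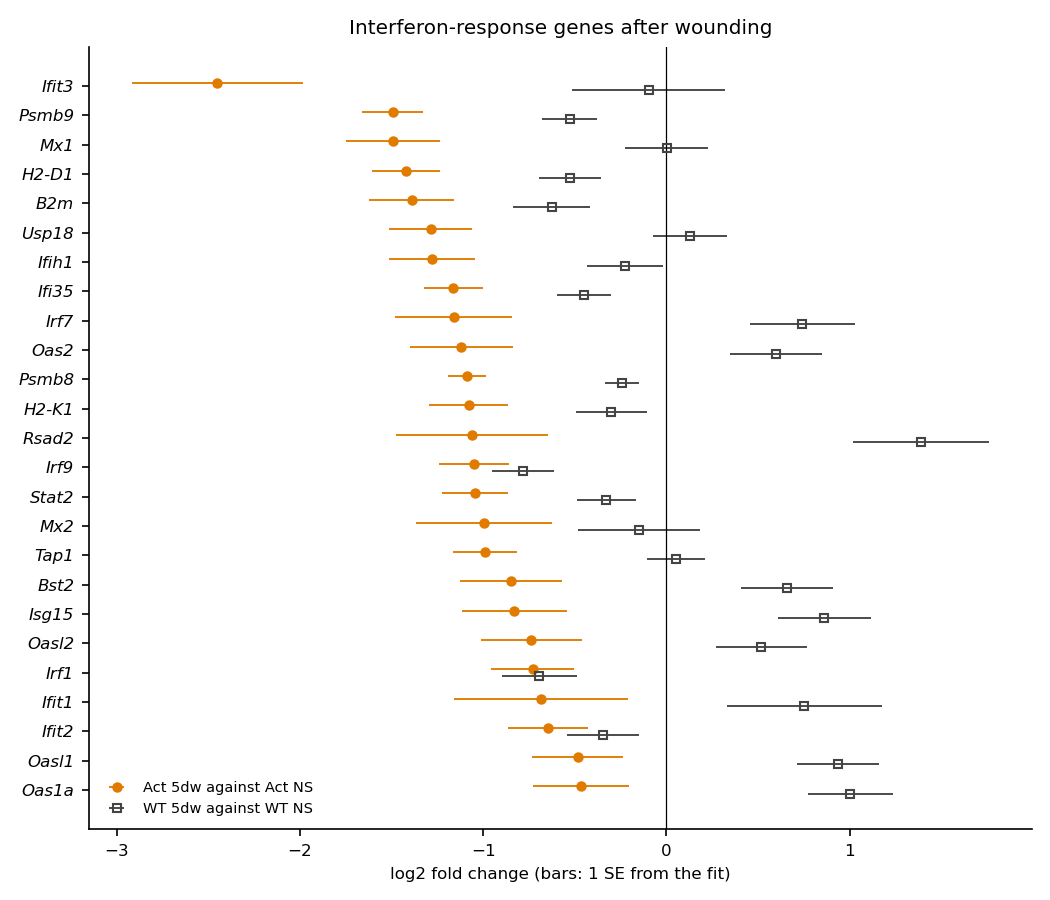
The log2 fold change after wounding is given for 25 of the 26 tested interferon-response genes in Act (filled circles) and WT (open squares), with bars of 1 SE from the fit. All Act values shown lie below 0, from -2.45 (Ifit3) to -0.47 (Oas1a), and WT values lie on both sides of 0.

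The start regions of this list are shown because the interferon-stimulated response element is what the family is known for. The RefSeq table (GRCm38.p6) held 21 of the 26 genes, and the letters GAAANNGAAA, searched on both strands in the 250 bases before the start, were in 8 of them (38.1%) and in 3.46% of all 27025 genes. These were B2m, Bst2, Ifit1, Ifit3, Isg15, Oas1a, Rsad2 and Stat2. Of the 8, Ifit1, Oas1a and Rsad2 were not called in Act, with log2 changes of -0.68 (SE 0.47), -0.47 (SE 0.26) and -1.06 (SE 0.42), and the other 5 were lower. Other annotated genes hold 68.8% of the 31-base sequences of Oas1a. Capitals mark every match, and in Isg15 and Oas1a matches overlap each other. The stretches are chr4:156200850-156200921 (minus strand), chr19:34583348-34583441 (plus), chr5:120907526-120907570 (minus) and chr2:122147523-122147582 (plus), in that order, each printed 5′ to 3′ on the gene's strand.
Isg15: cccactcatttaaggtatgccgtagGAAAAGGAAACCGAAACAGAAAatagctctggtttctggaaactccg
Ifit3: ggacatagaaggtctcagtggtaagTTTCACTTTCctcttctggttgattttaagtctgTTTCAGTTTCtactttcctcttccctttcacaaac
Oas1a: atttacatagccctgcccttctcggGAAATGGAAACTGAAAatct
B2m: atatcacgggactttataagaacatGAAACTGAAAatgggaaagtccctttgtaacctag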

How the data were processed

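Poly-A RNA of sorted fibroblasts was sequenced from 1 end (100 bp). Alignment to the mouse genome (GRCm38) and counting per gene were done by the authors in CLC Genomics Workbench, and RPKM values were deposited. The submitters' processing notes name edgeR. Handling of strand and of reads with several positions: not given in the sources used here. The members and gene lists were chosen with earlier results of these data known.

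Here, each library's RPKM was multiplied by a median-ratio factor over the 11430 tested genes (0.87 to 1.20 in the Act libraries), 0.5 was added, and log2 values were fitted with limma 3.58.1 (R 4.3.3, limma-trend) with a mean for each of the 4 groups (11 libraries in all) and 7 residual degrees of freedom. Contrasts were Act 5dw against Act NS, WT 5dw against WT NS, their difference, and Act against WT within a tissue. Within each contrast, two-sided p-values received Benjamini-Hochberg adjustment, with a threshold of 0.05. A fold change on this scale understates the change of genes near 0.5. Scaling was chosen because deposited RPKM values shift the median gene between tissues.

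Mapped totals were worked out as the number that turns RPKM times exon length (GENCODE M21) into whole reads, and 81.6% to 83.1% of values under 30 reads came within 0.03 of a whole number. Intervals for counting error are not given, since precision rests on 2 and 3 libraries. Of the tested symbols, 96.8% matched 1 GENCODE gene. Sharing is the percent of a gene's 31-base transcript sequences found, on either strand, in another gene's transcripts.

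The genes named are the 12 highest and 12 lowest protein-coding DEGs without overlap between the Act groups and with a mean of at least 5, the 2 highest and 2 lowest DEGs of each list, the 5 genes of smallest p in the difference between genotypes, fixed genes (Pdgfra, Col1a1, Col3a1, Acta2, Inhba, Postn, Aspn, Lox, Plod2, Fn1, Tnc, Cthrc1, Sfrp2, Ptprc, Krt14) and the most abundant member of each marker list. Other members of the 29 role lists and 11 marker lists are named as members, after their values were seen. The scripts were tested on simulated data with known changes. The alternatives were other scalings, pseudocounts and filters, no trend, array weights, only the groups compared, a replicate block, limma-voom and leaving out each library. Results of some genes are not reported here.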

Additional observations from a re-analysis of the deposited data

Results flagged for a closer look

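Of the 10 genes called in opposite directions in Act and WT, 8 lie outside the lists. In these 8, both Act wound libraries lay on one side of the Act NS libraries and all 3 WT wound libraries on the other side of the WT NS libraries. They were picked by their opposite calls, and the share of all tested genes with this pattern is not given. In none of the 8 did the difference between the responses pass after adjustment (adjusted p 0.173 to 0.440 with limma). The Act response minus the WT response, as a log2 value, was 2.30 in Gm13841, 1.70 in Gm10182, 1.67 in Rpl30-ps10, 1.60 in Gm8325, 0.79 in 9130008F23Rik, -1.29 in Gm7504, -1.31 in Hint2 and -1.47 in Tgtp2. Gm13841, Gm10182, Rpl30-ps10, Gm8325 and Gm7504 are pseudogenes, and 100%, 100%, 96.8%, 82.2% and 24.9% of their 31-base sequences occur in other annotated genes. For Tgtp2, an interferon-induced GTPase gene, that share was 90.5%. The other 2 genes called in opposite directions, Isg15 and Dhx58, are interferon-response genes too, with differences of -1.69 and -1.76.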

How the results depend on the processing

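Precision was limited by the 2 Act wound libraries: leaving out 1 library at a time gave 3134 to 4986 Act DEGs (1547 to 2443 higher, 1587 to 2543 lower), lowest without Act 5dw replicate 3, and 3936 to 5142 WT DEGs (2016 to 2546 higher, 1920 to 2596 lower). With 1 wound library left, it is assumed to vary like the other groups. A filter of 5 RPKM, with fewer genes tested, gave 2663 Act DEGs (1446 higher, 1217 lower) and 2894 WT DEGs (1664 higher, 1230 lower). RPKM as deposited moved the split to 1028 higher and 4256 lower in Act and to 1034 higher and 5600 lower in WT. The other settings kept the Act count between 3879 and 5715. The difference between genotypes called 9 genes with no filter, 1 with the filter of 5 RPKM and 1 with array weights, and 0 to 1 when a library was left out.

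Of 116 named DEGs (102 tested with the filter of 5 RPKM and 115 with limma-voom) none changed direction under the alternatives it was tested in, and 27 lost the call under at least 1, most often without a wound library. Genes that were not called changed sign as follows: Atp5j2 to -0.00594 as deposited, Inhba to 0.16 without Act 5dw replicate 1 (-0.79 to 0.16 over the leave-out fits), and Fabp4 to -0.28 as deposited, -0.038 with array weights, -0.08 without Act NS replicate 3 and -0.14 without Act 5dw replicate 3 (-0.14 to 0.22 over the leave-out fits). The cause was not tested. Of 1716 higher or lower counts of gene lists under the alternatives, 182 moved by over 1.5 times or away from 0. The interferon-response list had 13 to 22 lower genes over the leave-out fits and 0 called in the difference between genotypes under every alternative run.

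Libraries with the same replicate number had correlations of deviations of 0.12 to 0.57 in 12 of 15 pairs, and 9 of 11 libraries matched their own number best. The other 3 pairs, all with Act 5dw replicate 1, were at -0.13 to 0.02. Act 5dw has 2 libraries, whose deviations from their mean mirror each other, so these 3 pairs cannot decide whether the number matters. The number was not used as a pairing in the main fit of all groups. Between WT NS and WT 5dw alone, the 3 pairs were at 0.12 to 0.21. With the number as a replicate block, 5054 Act DEGs (4529 of them among the 4692) and 5525 WT DEGs were called, and 0 genes in the difference between genotypes.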
